A study of Mus musculus with 23 samples.

Results

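The regions described here are the intervals of a merged H3K9me3 list whose midpoint lies between base 3000000 and base 6000000 of mouse chromosomes 1 to 19 (mm10). They number 481, or 2.87% of the 16738 intervals in the whole list and 3.13% of the 15382 on these 19 chromosomes. The choice used position alone and no measured value. Mouse chromosomes carry their centromere at one end. In the assembly that end is a placeholder, and the lowest interval of any list on these chromosomes began at base 3000003, so the first 3 Mb of usable sequence are the assembled sequence closest to the centromere. The interval just inside the limit lay on chromosome 3 (5999313 to 5999663, 351 bp) and the one just outside it on chromosome 7 (6006559 to 6007423, 865 bp).

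The material was CD4+ naive T cells taken from spleen and from nodes labelled pLN, profiled by CUT&Tag, in which an antibody tethers a transposase that cuts and tags nearby DNA. H3K9me3 was profiled in 2 DDX55 KO and 2 WT samples, as were RNA polymerase II and DDX55, a DEAD-box RNA helicase. DNA-RNA hybrids (R-loops, antibody S9.6) were profiled in 2 samples of each genotype with 20 U of RNase H and 2 of each without, and 2 HA-tag samples and 1 IgG sample were WT. For each of these 4 targets a single merged list is named for all its samples, KO and WT alike, so that no value per sample, no KO against WT difference and no spread between libraries could be measured. The labels do not say how the knockout was made, how old the mice were or whether replicates are from different animals. With KO and WT samples merged, the lists can check neither the loss of DDX55 nor the cell type against expressed markers.

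H3K9me3 is the trimethyl mark that SUV39H and SETDB1 enzymes place on histone H3 and that HP1 proteins read. In mouse cells it is best known from constitutive heterochromatin around the centromeres, which is built on satellite repeats, and from silenced transposons and zinc finger gene clusters. R-loops are structures in which a transcript pairs with one DNA strand, and RNase H degrades the RNA in them.

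**Figure D1:**
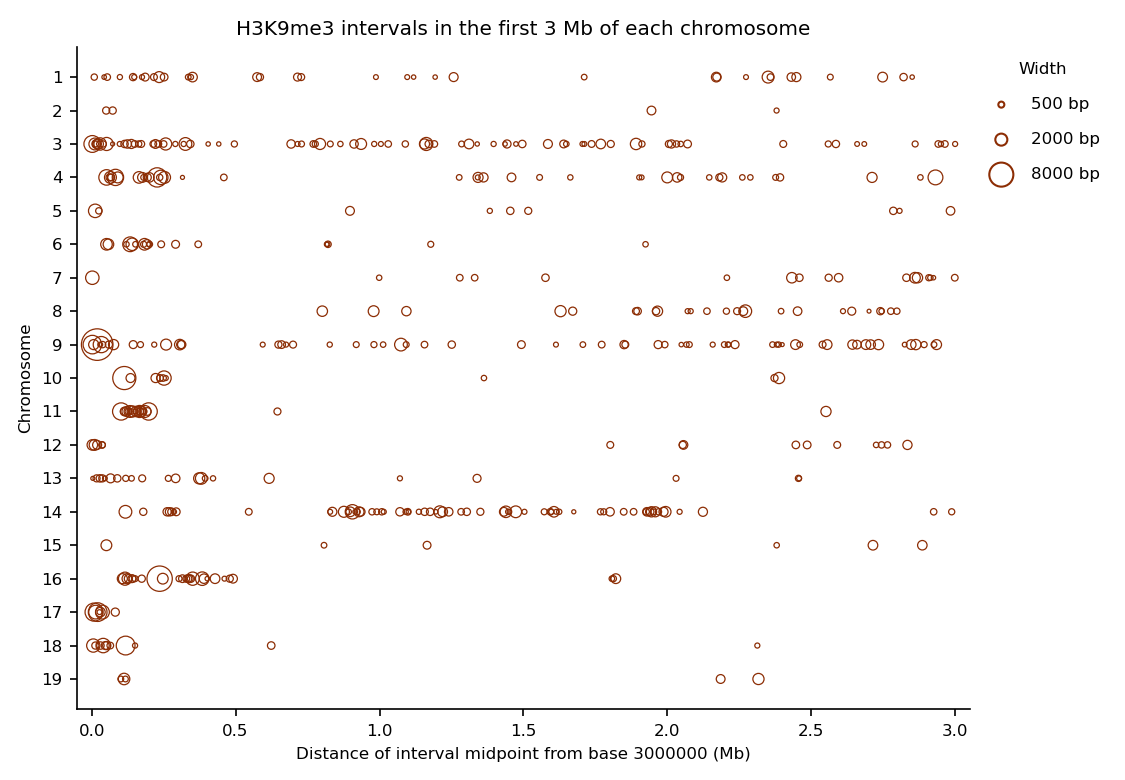
Every H3K9me3 interval of the first 3 Mb, by chromosome (rows) and by the distance of its midpoint from base 3000000 (horizontal axis, Mb), with circle area in proportion to width. Wide intervals crowd into the left 0.5 Mb of most rows, while chromosomes 3, 9 and 14 carry intervals along the whole stretch.

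Few of the intervals touched the start of a gene, and the sequences of those starts are given here as examples of the promoters that were marked. Of 873 RefSeq promoter windows in the first 3 Mb (250 bases before to 50 after a gene's start, 690 genes), 6 windows of 4 genes met H3K9me3, which is 0.687%, against 0.419% of 30523 windows elsewhere on chromosomes 1 to 19. None of the 873 met a DDX55 or an R-loop interval or both H3K9me3 and RNA polymerase II, but elsewhere 0.0524%, 0.167% and 0.0229% of windows did, too few for these counts of 0 to show a difference. The windows with H3K9me3 held a median of 6 CG pairs (1 to 15), near the median of 8 over all 873, while the 179 with RNA polymerase II held a median of 24. Gm10410 accounts for 3 of the 6, which overlap each other. All 4 genes carry predicted or clone names. The promoters of Gm52720, LOC115490388 and 1700110I01Rik lay wholly inside an H3K9me3 interval, and 185 bases of the Gm10410 window printed here did. The Eif4enif1 promoter, which lay wholly inside an RNA polymerase II interval, is shown for contrast. It lay within the bounds of Sfi1, the gene that met most intervals. Capitals mark CG pairs, of which there are 8, 15, 1, 6 and 27 in the order printed (RefSeq, GRCm38.p6, 5′ to 3′ on the gene's strand).
Gm52720 (chr4:3200250-3200549, strand -): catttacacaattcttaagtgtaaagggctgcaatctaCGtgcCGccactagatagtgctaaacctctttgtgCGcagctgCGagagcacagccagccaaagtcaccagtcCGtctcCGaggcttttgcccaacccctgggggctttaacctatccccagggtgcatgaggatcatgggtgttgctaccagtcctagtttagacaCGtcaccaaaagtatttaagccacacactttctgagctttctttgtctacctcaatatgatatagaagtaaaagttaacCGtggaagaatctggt
LOC115490388 (chr6:3182866-3183165, strand +): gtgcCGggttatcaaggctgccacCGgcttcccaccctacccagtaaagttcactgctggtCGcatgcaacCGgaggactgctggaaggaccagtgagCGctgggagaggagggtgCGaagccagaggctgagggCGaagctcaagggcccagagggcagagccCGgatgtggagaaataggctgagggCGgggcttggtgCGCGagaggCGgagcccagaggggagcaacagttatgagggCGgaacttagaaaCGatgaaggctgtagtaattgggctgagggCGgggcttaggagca
1700110I01Rik (chr14:3262152-3262451, strand +): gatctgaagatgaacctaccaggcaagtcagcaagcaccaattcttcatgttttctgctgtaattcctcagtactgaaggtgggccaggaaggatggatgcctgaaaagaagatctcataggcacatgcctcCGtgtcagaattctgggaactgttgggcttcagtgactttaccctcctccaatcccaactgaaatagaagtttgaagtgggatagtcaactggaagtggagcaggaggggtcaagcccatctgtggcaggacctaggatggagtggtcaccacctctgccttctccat
Gm10410 (chr14:4938088-4938387, strand +): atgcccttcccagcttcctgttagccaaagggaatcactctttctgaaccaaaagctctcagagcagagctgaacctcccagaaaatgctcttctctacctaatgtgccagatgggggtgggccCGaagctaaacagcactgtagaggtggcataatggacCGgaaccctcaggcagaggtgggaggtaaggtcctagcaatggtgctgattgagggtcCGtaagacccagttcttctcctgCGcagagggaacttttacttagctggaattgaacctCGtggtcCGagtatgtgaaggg
Eif4enif1 (chr11:3202103-3202402, strand +): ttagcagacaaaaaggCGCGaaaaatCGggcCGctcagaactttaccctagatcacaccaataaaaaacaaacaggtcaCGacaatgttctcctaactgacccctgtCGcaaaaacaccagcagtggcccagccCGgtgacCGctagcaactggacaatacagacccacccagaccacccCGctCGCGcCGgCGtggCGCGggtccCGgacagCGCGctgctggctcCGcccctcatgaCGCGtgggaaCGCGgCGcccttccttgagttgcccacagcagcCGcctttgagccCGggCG

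H3K9me3 covered more of the first 3 Mb than of a typical 3-Mb window of the same chromosome. The first windows were 2.26% covered on chromosome 9, against a median of 0.10% in its 39 other windows, 2.17% on chromosome 3 (median of others 0.441%), 1.86% on chromosome 14 (0.274%) and 1.58% on chromosome 4 (0.358%). On chromosomes 3 and 9 no other window was covered as much. At the low end, 0.0947% of the first window was covered on chromosome 2, against 0.274%, and 0.269% on chromosome 5, against 0.340%. The first window lay above the median on 17 of 19 chromosomes, with a median difference of 2843 bp per Mb (exact two-sided sign test over chromosomes, which are not biological replicates, adjusted p = 0.00437 over 6 tests). On the chromosomes other than 3 and 9 at least 1 other window was covered as much or more, and against the mean of the other windows the count was 14 of 19 (exact sign test, adjusted p = 0.0954).

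**Figure D2:**
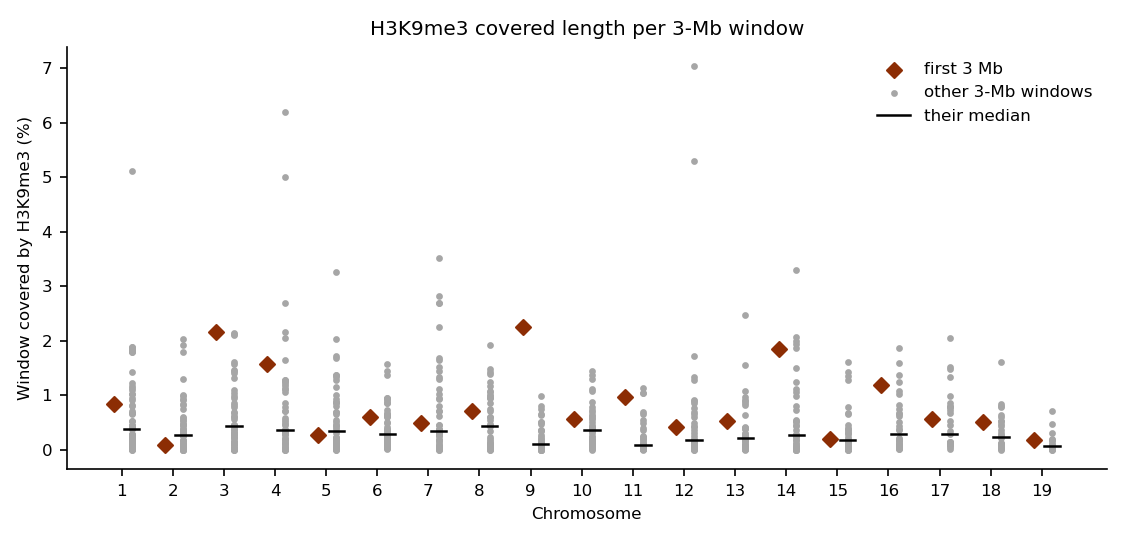
Share of each 3-Mb window covered by H3K9me3 (vertical axis, percent) by chromosome: diamonds are the first 3 Mb, grey points the other windows and bars their median. The diamond is above the bar on all chromosomes except 2 and 5, yet on most chromosomes some grey points are higher.

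The number of intervals per window did not pass the same test with 3-Mb windows. Chromosomes 3, 14 and 9 were fullest, with 80, 67 and 63 intervals in their first 3 Mb, against medians of 17, 12 and 4 in their other windows, and together held 43.7% of all 481. Chromosomes 2, 19 and 15 were emptiest, with 4, 5 and 6, against medians of 10.5, 2 and 6.5. The first window held more than the median of its chromosome on 14 of 19 chromosomes, by a median of 2.33 intervals per Mb (exact sign test, adjusted p = 0.0954). It was above the 90th percentile of all other windows (50 intervals) on 3 chromosomes, or 3 of 19, while 10.1% of all 793 windows were. With windows of 1 Mb the first was higher on 16 chromosomes and lower on 2 (adjusted p = 0.00394, exact sign test). Against the mean of the other 3-Mb windows it was higher on 10 and lower on 9, by a median of 0.298 per Mb (exact sign test, adjusted p = 1.00). At the other chromosome end the last full window held fewer intervals than the first on 16 of 19 chromosomes, with a median difference of 5 per Mb (exact sign test, adjusted p = 0.00885). On chromosomes 2, 17 and 18 the last window held more, with 4, 7 and 11 intervals in the first and 14, 26 and 34 in the last.

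Pooled over the 19 chromosomes, the excess in density and width lay in the 0.5 Mb closest to the centromere. Single chromosomes departed from this. Chromosomes 14, 9 and 3 also held many intervals beyond 0.5 Mb, with 60 of 67, 48 of 63 and 51 of 80. Chromosome 8 had 0 intervals in the first 0.5 Mb and 25 beyond, and chromosome 7 had 1 and 16. Pooled, the first 0.5 Mb held 191 of the 481 intervals, or 20.1 per Mb, and 53.7% of their covered length. The following 2.5 Mb held 290, or 6.11 per Mb, and the rest of the 19 chromosomes 6.35 per Mb. In steps of 0.1 Mb the density was 33.2, 32.6, 17.4, 12.1 and 5.26 per Mb, and the covered length was 54323, 41771, 23974, 12843 and 2992 bp per Mb. Neighbouring members were a median of 21732 bp apart, against 34585 bp elsewhere, and 14.3% of the gaps were under 5000 bp, against 7.88%. In all 2.72% of the first 0.5 Mb was covered, against 0.468% of the next 2.5 Mb and 0.511% outside the first 3 Mb. By chromosome, these 0.5 Mb were also set against the mean of the other 0.5-Mb windows. Density was higher on 14 and lower on 5 chromosomes and did not pass (exact sign test, adjusted p = 0.0954). Covered length was higher on 15 and lower on 4 (exact sign test, adjusted p = 0.0384). Without the first 0.5 Mb, a setting added after the profile had been seen, the median difference in density was 0, higher on 9 chromosomes and lower on 8 (exact sign test, adjusted p = 1.00), and the covered length was higher on 9 and lower on 10 (adjusted p = 1.00, exact sign test).

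**Figure D3:**
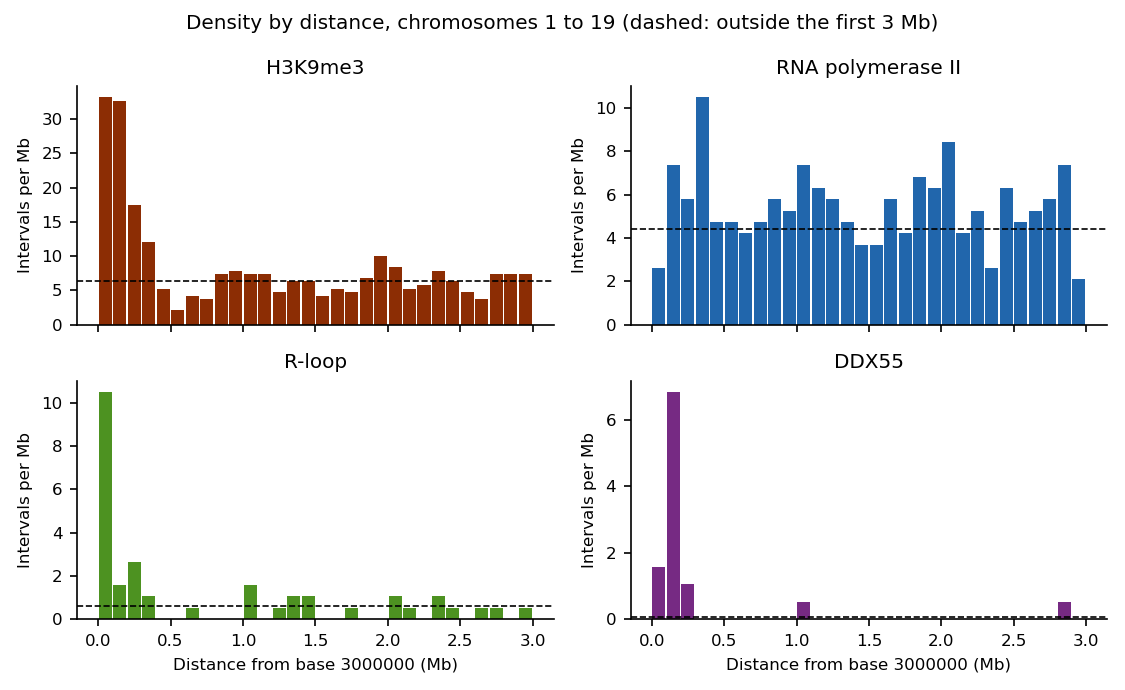
Intervals per Mb (vertical axes) of the 4 lists in steps of 0.1 Mb from base 3000000 (horizontal axis, Mb), pooled over chromosomes 1 to 19. Dashed lines give the density outside the first 3 Mb. H3K9me3 falls to its dashed line by 0.5 Mb, and R-loop and DDX55 intervals sit mostly in the first steps. RNA polymerase II lies above its line in most steps and below it in the others.

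Chromosomes differed widely in these 0.5 Mb. The covered share was 6.71% on chromosome 16, 6.69% on chromosome 9, 5.82% on chromosome 3, 5.80% on chromosome 4 and 5.38% on chromosome 11. On chromosomes 3, 9, 11, 16 and 18 (2.88%) it was the most covered of all 0.5-Mb windows, and on 12 of 19 it was in the top 10%. Chromosome 8 had no interval there and 25 in the next 2.5 Mb. Chromosomes 7 and 15 had 1 each, and chromosomes 2 and 5 had 2. On chromosome 17 all 7 intervals lay in these 0.5 Mb, and on chromosome 16 it was 24 of 27.

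By median width the intervals were also wider than the others on most chromosomes. The median width was 695 bp, against 606 bp for the 14901 other intervals, and 38 (7.90%, exact 95% interval 5.65 to 10.7) reached 2000 bp, where 4.58% of all intervals on chromosomes 1 to 19 did. Of these 38, 33 lay in the first 0.5 Mb. There the median was 838 bp and 17.3% reached 2000 bp, while in the next 2.5 Mb the median was 606 bp and 1.72% did. By chromosome the median width was higher than that of the other intervals on 15, lower on 2 and equal on 1 of 18 chromosomes with at least 5 members, by a median of 120 bp (exact sign test, adjusted p = 0.00705). The largest differences were on chromosome 17, with 2596 bp against 612 bp, and chromosome 11, with 1383 bp against 577 bp. On the fullest chromosomes, 3, 14 and 9, the medians were 598, 609 and 652 bp, against 594, 608 and 652 bp. The share of intervals of at least 2000 bp was higher on 12 and lower on 6 chromosomes (exact sign test, adjusted p = 0.357). Without the first 0.5 Mb the width was higher on 5 and lower on 7 chromosomes (exact sign test, adjusted p = 0.774). When intervals under 1000 bp apart were joined, the count was 13 higher and 5 lower (exact sign test, adjusted p = 0.144). Covered length, density and width come from the same intervals, so their tests are not independent.

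**Figure D4:**
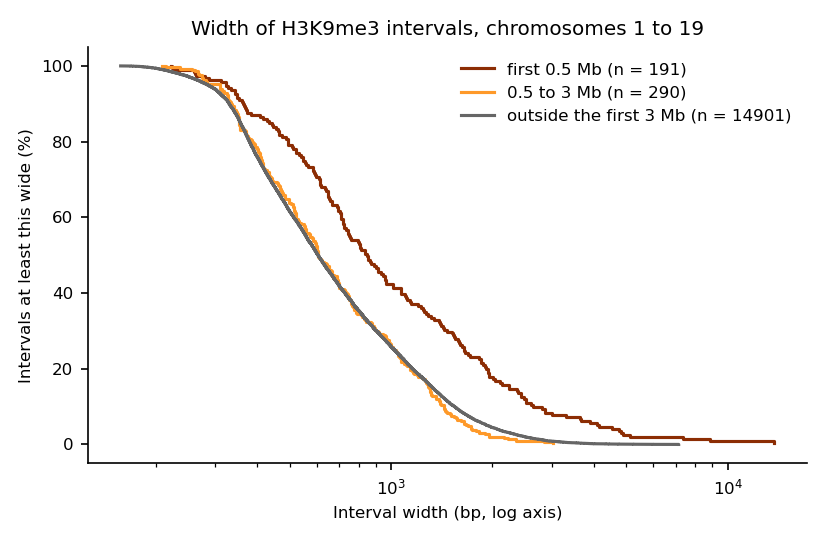
Percent of H3K9me3 intervals at least as wide as the value on the horizontal axis (bp, log axis), for the first 0.5 Mb, the next 2.5 Mb and the rest of chromosomes 1 to 19. The curve of the first 0.5 Mb lies to the right (median 838 bp), and the curves of the next 2.5 Mb and of the rest (median 606 bp each) run close together.

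The widest interval of the entire H3K9me3 list lay here, on chromosome 9 from 3012237 to 3026002, with 13766 bp. The next in this set were 8872 bp on chromosome 16 (3231588 to 3240459), 7372 bp on chromosome 10 (3109643 to 3117014), 5129 bp on chromosome 4, 4871 bp on chromosome 18 and 4830 bp on chromosome 17. They were followed by 4748 bp on chromosome 9, 4525 bp on chromosome 17, and 4134 and 4096 bp on chromosome 11. These 10 ranked between 1 and 58 among the 16738 intervals of the list. All 10 lay in the first 0.5 Mb. By midpoint 9 of them were intergenic, and 1 lay in the gene Sfi1.

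The stretch at the very start of chromosome 9 carried all 4 lists. Its first 38288 bp held 6 H3K9me3 intervals that covered 63.8% of it and 5 R-loop intervals that covered 21131 bp, all inside H3K9me3. The R-loop interval of 13682 bp filled 99.4% of the widest H3K9me3 interval, and another of 4734 bp lay within the H3K9me3 interval of 4748 bp with the lowest start of the list. DDX55 intervals of 560 and 625 bp and RNA polymerase II intervals of 540 and 603 bp lay at the same places, the first within 1 kb of base 3000000. No gene of the table lay in this stretch, and the nearest, the microRNA gene Mir101c, lay downstream of it. How reads from repeats were placed is not known, and the IgG profile was not analysed. Whether intervals that coincide here and in the stretches below come from repeated sequence was not tested.

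Other stretches carried other combinations. At the start of chromosome 17, from 3006150, 6 H3K9me3 intervals of 323 to 4830 bp held 6 R-loop intervals of 520 to 1528 bp and no DDX55 or RNA polymerase II interval. On chromosome 10 the 7372 bp interval held 4 DDX55 intervals of 422 to 510 bp and 2 RNA polymerase II intervals of 359 and 415 bp, with no R-loop. On chromosome 16 the 8872 bp interval held R-loop intervals of 918 and 499 bp only. On chromosome 6 all 4 lists met at an H3K9me3 interval of 463 bp (3201145 to 3201607), beside the lncRNA gene LOC115490388. Beyond 0.5 Mb a single place joined 3 lists, on chromosome 3 (5860339 to 5860836), where a DDX55 interval of 538 bp and RNA polymerase II met H3K9me3, with the DDX55 interval 109044 bp from the nearest gene, the pseudogene Gm8797.

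**Figure D5:**
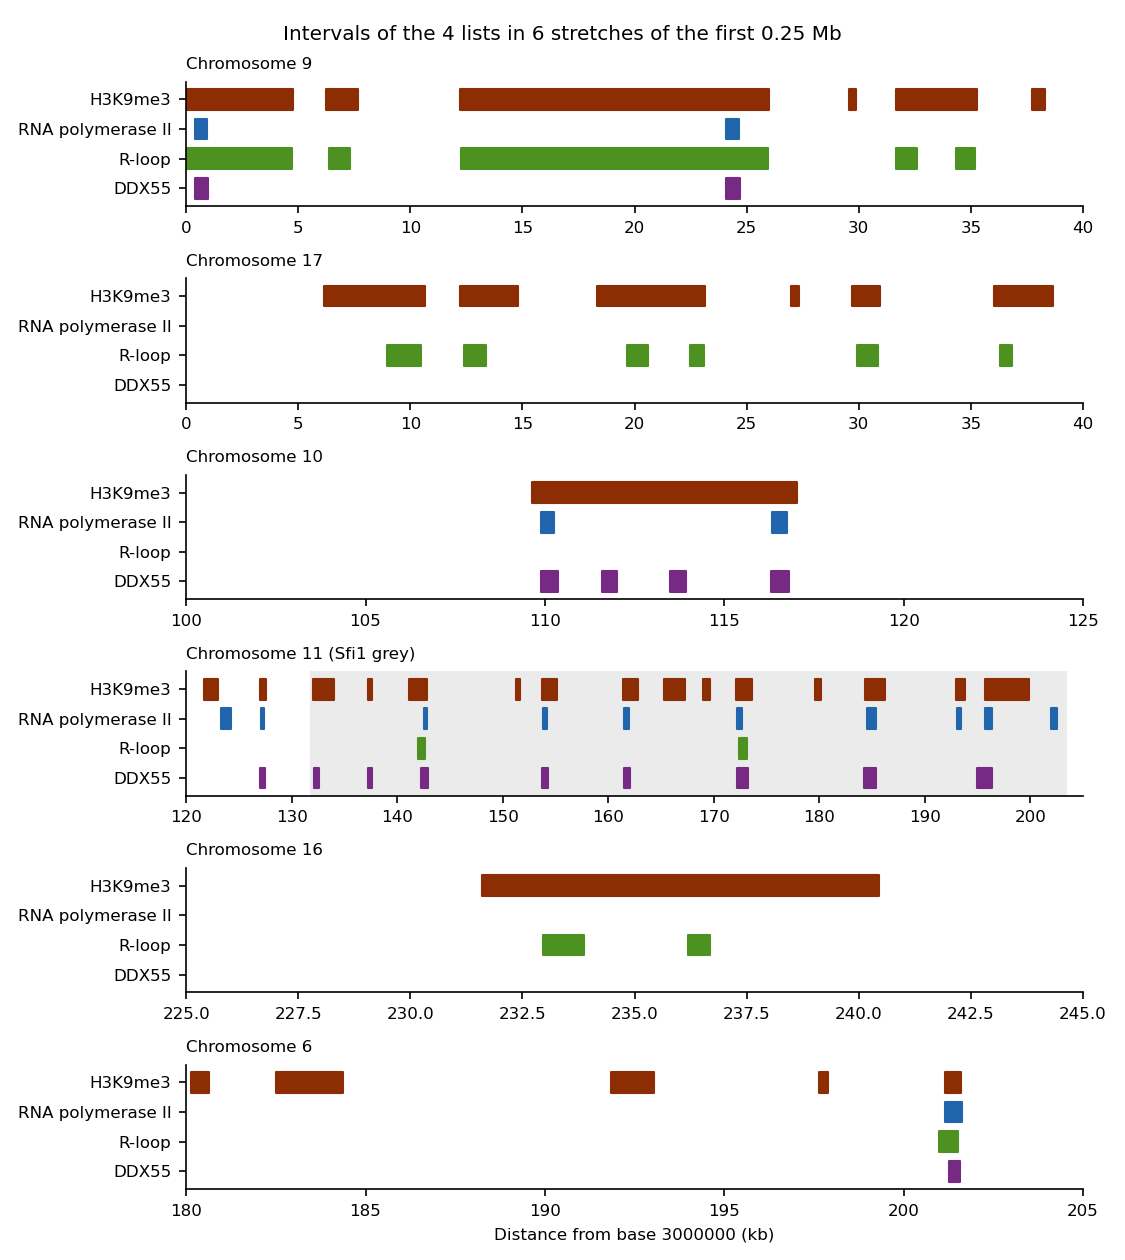
Intervals of the 4 lists (coloured bars, one row per list) in 6 stretches near the start of chromosomes 9, 17, 10, 11, 16 and 6, by distance from base 3000000 (horizontal axes, kb). R-loop bars follow H3K9me3 on chromosomes 9 and 17, DDX55 and RNA polymerase II bars recur at the same places on chromosome 11, where Sfi1 is shaded, and chromosome 10 has 4 DDX55 bars in one H3K9me3 interval.

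Sfi1, which encodes a centrin-binding protein of the centrosome, was the gene of the set with most intervals. Over its 71498 bp (chromosome 11, 3131850 to 3203347) lay 13 H3K9me3 intervals that covered 26.6% of the gene, 8 of DDX55, 8 of RNA polymerase II and 2 of R-loops. All 8 DDX55 intervals met H3K9me3 and 6 met RNA polymerase II. Among the RNA polymerase II intervals, the one of 610 bp also covered the Eif4enif1 promoter and met no H3K9me3. Neighbouring DDX55 midpoints were 5093 to 12098 bp apart. At least as many H3K9me3 intervals, within the gene or 3000 bp of it, were found at 50 protein-coding genes of chromosomes 1 to 19. A ninth DDX55 interval (514 bp) lay in the neighbouring pseudogene Pisd-ps1, with 303 bp of RNA polymerase II inside an H3K9me3 interval of 567 bp. The related pseudogene Pisd-ps2 on chromosome 17 had the same 3 marks at one place, with 906 bp of DDX55, 913 bp of H3K9me3 and 843 bp of RNA polymerase II. Reads from near-identical copies cannot be placed with certainty, so which copy carries a given interval is uncertain for these genes.

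DDX55 and R-loop intervals were crowded into the same first 0.5 Mb. The first 3 Mb held 20 DDX55 intervals, 10.3% of the 195 on these chromosomes and 4.70 times the density elsewhere (0.351 against 0.0746 per Mb), and 18 of the 20 lay in the first 0.5 Mb. They were on 8 chromosomes, with 9 on chromosome 11 and 4 on chromosome 10, and without chromosome 11 the ratio was 2.60. R-loop intervals numbered 49, or 1.46 times the density elsewhere (0.860 against 0.589 per Mb). Of these, 30 lay in the first 0.5 Mb, with 20 in the first 0.1 Mb. In the next 0.1 Mb lay 13 DDX55 intervals, all of them those of chromosomes 10 and 11. Chromosomes 9 and 17 held 13 of the 49. Beyond 0.5 Mb the density was 0.679 times that elsewhere for R-loops and 0.565 times for DDX55. The densities of these short lists were not tested. DDX55 KO samples were pooled into the DDX55 list, so its intervals are not known to depend on DDX55.

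H3K9me3 met the other lists more often here than over the whole list, and again this was mostly within the first 0.5 Mb. R-loop intervals were met by 31 of the 481 (6.44%, exact 95% interval 4.42 to 9.02), where 1.58% of all H3K9me3 intervals on chromosomes 1 to 19 were. DDX55 was met by 16 (3.33%), against 0.728% of all, and RNA polymerase II by 14 (2.91%), against 0.540% of all. No test was made of these shares, and how far reads from repeats entered them is not known. Chromosome 11 supplied 9 of the 16 and 8 of the 14, and without it the shares were 1.52% for DDX55 and 1.3% for RNA polymerase II. In the first 0.5 Mb the shares were 12.6% for R-loops, 7.33% for DDX55 and 6.81% for RNA polymerase II, while in the next 2.5 Mb they were 2.41%, 0.690% and 0.345%. Of the 14 that met RNA polymerase II, 13 also met DDX55, and 5 met all 3 other lists. These 5 were on chromosome 9 (2 intervals), chromosome 11 (2, both in Sfi1) and chromosome 6. Another 438 of the 481 met no other list.

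Counted from the other side, 34 of the 49 R-loop intervals (69.4%) met H3K9me3, where 17.2% of R-loop intervals on chromosomes 1 to 19 did, and 19 of the 20 DDX55 intervals (95%) did so, against 64.6%. For RNA polymerase II it was 15 of 309 (4.85%), against 0.806%. The exact 95% interval of the DDX55 share was 75.1 to 99.9. Of the 20 DDX55 intervals, 13 lay on chromosomes 10 and 11, with 4 of them inside a single H3K9me3 interval. The DDX55 interval without H3K9me3, of 308 bp, lay in Nmt2, an N-myristoyltransferase gene. Within the first 0.5 Mb 27 of 30 R-loop intervals met H3K9me3. Those without it lay next to Gm41084 on chromosome 14, near Gm3053 on chromosome 5 and in the pseudogene Gm8579 on chromosome 6. In the next 2.5 Mb 12 of 19 R-loop intervals had none, among them those in Syne1 (1163 bp), which encodes a nuclear envelope spectrin-repeat protein, Camk1d (614 bp), a calcium-dependent kinase gene, Card6 (491 bp) and Klhl29 (286 bp). RNase H-treated samples were pooled into the R-loop list, so its intervals are not known to be RNase H-sensitive.

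Neither RNA polymerase II intervals nor genes passed the test of density. The first 3 Mb held 309 RNA polymerase II intervals, 5.42 per Mb against 4.41 elsewhere, with more than the chromosome's median on 11 chromosomes and fewer on 7 (exact sign test, adjusted p = 0.481). Without chromosome 19, which held 71 of them, the ratio to elsewhere was 1.00. Protein-coding genes numbered 604 by midpoint, 10.6 per Mb against 8.50, with more than the median on 12 chromosomes and fewer on 7 (exact sign test, adjusted p = 0.431). The first 0.5 Mb held 68 of them, or 7.16 per Mb, of which 2 lay in the first 0.1 Mb. The 3 chromosomes with most H3K9me3 intervals, 3, 14 and 9, had 3, 45 and 10 of these genes, and the 3 with fewest, 2, 19 and 15, had 27, 118 and 15, so that the gene numbers overlapped. Chromosome 14 had no RNA polymerase II interval in its first 3 Mb.

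By midpoint 340 of the 481 intervals (70.7%) lay between genes, where 70.1% of all H3K9me3 intervals on chromosomes 1 to 19 did. Another 69 (14.3%, against 16.8%) lay in the body of a protein-coding gene, 58 (12.1%, against 8.98%) in another annotated gene and 14 (2.91%, against 4.08%) within 3000 bp of an end of a protein-coding gene. Of the 604 protein-coding genes, 40 (6.62%) met an interval inside the gene or within 3000 bp of it, where 6.55% of all did. RNA polymerase II was met by 257 (42.5%), against 38.0% of all, and 10 genes (1.66%) met both, against 1.28% of all. Of the 58 intervals in other annotated genes 24 lay on chromosome 14, and without that chromosome the share was 8.21%.

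Of the 290 intervals beyond 0.5 Mb, 159 lay on chromosomes 3, 9 and 14. On chromosome 9 Gucy1a2, for a guanylate cyclase subunit, met 6 intervals of up to 814 bp, Gria4, for an AMPA receptor subunit, met 4, and Casp12, a caspase gene, met 1 of 440 bp. On chromosome 1 Xkr4, an XK-related membrane protein gene of 472216 bp, met 8 intervals that covered 1.47% of it, 6 in the first 0.5 Mb and 2 beyond. On chromosome 14 60 of 67 intervals lay beyond 0.5 Mb, among predicted genes. Gm32966 met 9, Gm10410 met 8, Gm26650 met 7 and the pseudogene Gm3029 met 7, of up to 2841 bp. Several of these predicted genes belong to families of similar copies, and which copy carries an interval is uncertain.

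Of the named families with more than 2 genes here, zinc finger genes had a lower marked share than on all 19 chromosomes. The other named families had an equal or higher one, and the remaining protein-coding genes a lower one. The family counts are small and no test was made. For Akr1c nearly the same genes are compared, as 8 of all 9 lie here. The zinc finger genes had 2 of 12, Zfp958 (1726 bp) and Zfp438 (354 bp), where 26.7% of all 415 on these chromosomes met H3K9me3. Vmn1r pheromone receptor genes had 2 of 13, Vmn1r238 beside the 4871 bp interval of chromosome 18 and Vmn1r2 (1313 bp), where 6.99% of all did. Of the 8 Akr1c aldo-keto reductase genes on chromosome 13, Akr1c14 met 1 interval of 353 bp, together with a DDX55 interval of 335 bp, where 11.1% of all 9 did. Gm-number genes had 13 of 59, where 22.0% of all did, and Rik genes 2 of 12, where 8.18% did. None of 2 Nlrp, 2 Olfr and 1 Vmn2r genes met an interval, where 22.2%, 4.71% and 32.0% of all did, and no Speer or Serpin gene lay here, where 40% and 3.23% of all did. The other 495 protein-coding genes had 20 (4.04%), where 5.08% of all did.

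By chromosome the protein-coding gene with a standard symbol that met the widest interval was Eif4enif1 on chromosome 11, whose product carries the cap-binding protein eIF4E into the nucleus and which lay within 3000 bp of the 4134 bp interval that Sfi1 also met. On chromosome 10 it was Syne1 (1733 bp), on chromosome 4 Fam110b (1399 bp), and on chromosome 13 Tasor2 (1391 bp), a relative of the silencing factor gene Tasor, whose H3K9me3 interval lay outside the gene while an RNA polymerase II interval of 1536 bp lay inside it. Mterf1a (1073 bp, chromosome 5), Pacs1 (1068 bp, chromosome 19), Ptprh (765 bp, chromosome 7), Zfhx4 (653 bp, chromosome 3) and Samd9l (615 bp, chromosome 6) followed with narrower intervals. Those of Mterf1a and Samd9l lay outside the gene, within 3000 bp of it.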

How the data were processed

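The authors deposited 1 merged interval list per CUT&Tag target. These deposited lists give another kind of value than counts: interval coordinates in bp, with no score. The submitters' processing notes name the build mm10 and, as tools, MACS3 (3.0.0b1), Bowtie2 (2.5.0), SAMtools (1.15.1), fastp (0.12.4) and ChIPseeker (1.30.3). The sources used here do not give thresholds, how intervals were merged, how reads from repeats were placed or whether controls were used. Depth is unknown, and HA and IgG profiles were not analysed here.

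Positions are 1-based. Genes came from a RefSeq table (GRCm38.p6, the same coordinates as mm10). Of 49997 rows, 46709 on assembled chromosomes 1 to 19 were used (20558 protein-coding), and scaffold and patch rows were left out. Promoter windows of chromosome 18 were left out only when the sequences to print were chosen, not from the counts. None of the marked windows lay on that chromosome, so no sequence was lost. Windows of 3 Mb ran from base 3000000. Midpoints decided the window, and 1 bp was enough for an overlap. First windows were set against the median of the other windows of their chromosome by two-sided exact sign tests over 19 chromosomes, with Benjamini-Hochberg adjustment over 6 tests and a threshold of 0.05. Each p describes these lists, not mice. Shares have exact Clopper-Pearson 95% intervals, which cover counting error only. Assembly gaps within chromosomes were not excluded. Python 3.11.15, numpy 2.4.6, pandas 2.3.3 and scipy 1.17.1 were used. The sign test of density was checked on simulated lists with uniformly random positions, which do not cluster as the real intervals do. The tests of covered length and width were not simulated.

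Genes were named by rule: per chromosome, the protein-coding gene with a standard symbol that met the widest interval, the 10 genes that met most intervals, up to 6 marked members per family, and genes with R-loop or DDX55 intervals. Not all are printed. Members, lists and tests were chosen with earlier results of these data known, and the split at 0.5 Mb was added after the profile was seen. Alternatives were other window lengths, shifts and averages, the wider 50% of the list, joined intervals, other overlap rules and leaving out each chromosome.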

Additional observations from a re-analysis of the deposited data

How the results depend on the processing

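No paired analysis was possible because each list merges its samples and holds no value per sample. Leaving out each chromosome in turn, the median difference in H3K9me3 covered length stayed between 2823 and 2912 bp per Mb, in width between 116 and 123 bp, against the last window between 4.67 and 5.00 per Mb, for RNA polymerase II between 0.833 and 1.33 and for genes between 1.08 and 1.25 per Mb, with no call changed. H3K9me3 density lay between 2.00 and 2.42 per Mb and passed when chromosome 2, 5, 15, 17 or 18, each with a lower first window, was left out (adjusted p = 0.0463, exact sign test). Against the mean of the other windows the difference was 0.298 per Mb, higher on 10 chromosomes and lower on 9 (exact sign test, adjusted p = 1.00), and with intervals under 5000 bp apart joined it was 1.33 (adjusted p = 0.144, exact sign test). It passed with windows of 1 Mb (9 per Mb), 2 Mb (3) and 5 Mb (2.30), with windows shifted by 1.5 Mb (2.67), against windows with a gene (2.33), with the wider 50% of the list (2.50) and with intervals under 1000 bp apart joined (2.17). On 1-Mb windows RNA polymerase II was higher (2.00 per Mb, adjusted p = 0.0288, exact sign test).

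Against the mean of the other windows the covered length did not pass (1530 bp per Mb), and RNA polymerase II (-0.828 per Mb) and genes (-0.741) turned, and likewise against the mean with 0.5-Mb windows (-0.954 and -2.12). With 1-Mb windows and the median they stayed positive (2 and 4). As a share of intervals of at least 2000 bp, width did not pass (4.10 percentage points), nor with intervals joined at 1000 bp (139 bp).

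Without the first 0.5 Mb, a setting chosen after seeing the data like all others of 0.5 Mb and the leaving out of chromosomes for ratios and shares, the covered length (-244 bp per Mb) and the width (-7.25 bp) turned, the difference from the last window was 1.60 per Mb and did not pass, and the density ratios were 0.961 for H3K9me3, 0.679 for R-loops and 0.565 for DDX55. In the first 0.5 Mb alone they were 3.17, 5.36 and 25.4, and 1.41 for RNA polymerase II. The shares of intervals that met another list were 0.345% for RNA polymerase II, 2.41% for R-loops and 0.690% for DDX55 without those 0.5 Mb. With at least 50% of the member covered they were 0.832%, 4.16% and 1.66%, and among the wider 50% of intervals 9.35% for R-loops. Leaving out each chromosome they ranged from 1.3% to 3.38%, 5.49% to 7.49% and 1.52% to 3.86% in the same order, and the density ratios ranged from 1.19 to 1.38 for H3K9me3, 1.00 to 1.29 for RNA polymerase II, 1.31 to 1.63 for R-loops and 2.60 to 6.10 for DDX55. The causes were not tested.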
